A study of Mus musculus with 6 samples.

Results

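The 10 genes described here are characteristic of the epithelium of the thymic cortex: Foxn1, Pax1, Dll4, Prss16, Psmb11, Ctsl, Ly75, Krt8, Krt18 and Tbata. They were chosen by symbol, and each matched 1 row of the 22298 genes listed. Messenger RNA had been profiled in thymocytes labelled double-negative, immature T cell precursors that carry neither CD4 nor CD8, sorted by flow cytometry from untreated C57BL/6 mice. Toxf/fPdcd1Cre mice carry a Tox gene flanked by recombination sites and a Cre recombinase named for Pdcd1, and Toxf/f mice carry the same Tox alleles, with no Cre named in their label. Age was 3 weeks for replicates 1 and 2 and 4 weeks for replicate 3, in both genotypes. The labels do not say which cells the Cre acts in, or whether animals were pooled. The deposited values of Toxf/f replicates 1 and 2 were identical, under a column name that carries the number 2 in both, so they were counted as 1 library. This left 3 Toxf/fPdcd1Cre libraries and 2 Toxf/f libraries. No label says that replicates were separate animals, and a p-value here reflects no more than how far the libraries scatter, which may be technical.

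The thymic cortex is a meshwork of epithelial cells in which T cell precursors commit, rearrange their receptor genes and undergo positive selection. The transcription factor FOXN1 drives the differentiation of this epithelium. Cortical cells offer the Notch ligand DLL4 to incoming progenitors, and cut the peptides on which selection takes place with the proteasome subunit encoded by Psmb11 and with the lysosomal proteases encoded by Prss16 and Ctsl. Keratins 8 and 18, the products of Krt8 and Krt18, pair to form the intermediate filaments of this and other simple epithelia.

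Libraries held 14245492 to 16199195 estimated counts. Tox, the targeted gene, had 4.98, 4.01 and 3.34 FPKM (fragments scaled to gene length and library depth) in Toxf/fPdcd1Cre libraries, against 31.1 and 27.5 FPKM in Toxf/f libraries. Double-positive thymocyte genes were abundant, against the label: Cd8a ranked 129 and Cd4 ranked 226 among all genes by mean FPKM. Kit, a marker of early progenitors, ranked 9806. Il2ra, another double-negative marker, ranked 3511, and Ptcra, the gene of the pre-T alpha chain, ranked 3101. Ddx3y, which lies on chromosome Y, had 1 count in Toxf/fPdcd1Cre replicate 1, against 843 and 1033 in replicates 2 and 3 of its genotype and 1105 and 1354 in the Toxf/f libraries. Values without replicate 1 of Toxf/fPdcd1Cre are given beside the members whose fold change they turn or move by over 1.5 times.

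Promoter sequences were looked up for the 10 genes, because FOXN1 is known in mouse thymic epithelium to bind sites with the core GACGC and several of these genes are its known targets. RefSeq promoters on GRCm38.p6, from 250 bases before to 50 bases after the transcription start, were found for 9 of the 10; the exception was Prss16. GACGC, on either strand, stood in 2 of the 9 promoters, those of Psmb11 and Pax1, and in 27.2% of the 32851 promoters of the same length over all genes. The share among these 9 is thus not above that of promoters at large. The Psmb11 promoter (chr14:54625060-54625359, plus strand) held the motif at 2 places, with its first base at -239 and at -62 from the start, both times with GACGC on the opposite strand, so that the gene's own strand, as printed, reads GCGTC. The Pax1 promoter (chr2:147364744-147365043, plus strand) held it once, at -86. The RefSeq starts of these 2 genes lie inside the gene bounds given with their values below. Both are shown because they carry the motif, which is in capitals.
Psmb11: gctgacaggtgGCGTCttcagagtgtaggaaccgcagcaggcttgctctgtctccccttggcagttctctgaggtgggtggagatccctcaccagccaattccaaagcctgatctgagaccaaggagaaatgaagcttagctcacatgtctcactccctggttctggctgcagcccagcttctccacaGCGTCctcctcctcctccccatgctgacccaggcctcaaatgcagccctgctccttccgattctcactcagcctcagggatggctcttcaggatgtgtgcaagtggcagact
Pax1: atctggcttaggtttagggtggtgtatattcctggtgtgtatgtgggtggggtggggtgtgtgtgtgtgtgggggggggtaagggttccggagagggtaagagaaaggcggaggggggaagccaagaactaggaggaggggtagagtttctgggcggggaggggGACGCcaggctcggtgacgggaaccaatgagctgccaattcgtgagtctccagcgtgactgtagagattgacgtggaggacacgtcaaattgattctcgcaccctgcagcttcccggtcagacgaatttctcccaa

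All 10 cortical epithelial genes were detected in every library, 5 of them at 50 FPKM or more in each, and no member passed the test between genotypes. The libraries are labelled as sorted thymocytes, and which cells these epithelial transcripts came from was not tested. In FPKM, which sets genes of different length on a common scale, Ctsl came first with a mean of 819 over the 5 libraries and ranked 88 of all listed genes. Prss16 followed at 503 FPKM (rank 141), Tbata at 450 FPKM (rank 151), Krt18 at 294 FPKM (rank 207) and Krt8 at 183 FPKM (rank 357). Rag1, a recombinase gene listed here with the double-positive thymocyte markers, ranked 103. Pax1 stood at 43.6 FPKM, Psmb11 at 29.1 FPKM, Ly75 at 27.3 FPKM, Foxn1 at 8.44 FPKM and Dll4 at 3.90 FPKM. In this order Prss16 and Tbata overlapped over the 5 libraries (431 to 576 and 414 to 496 FPKM), as did Psmb11 and Ly75 (25.0 to 35.1 and 20.8 to 33.8 FPKM). All other neighbours in the order did not overlap. The 10 genes together took 0.467%, 0.481% and 0.401% of all counts in Toxf/fPdcd1Cre libraries and 0.388% and 0.445% in Toxf/f libraries. In bulk RNA of this kind, fewer cells of a type and less RNA per cell cannot be told apart.

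**Figure D1:**
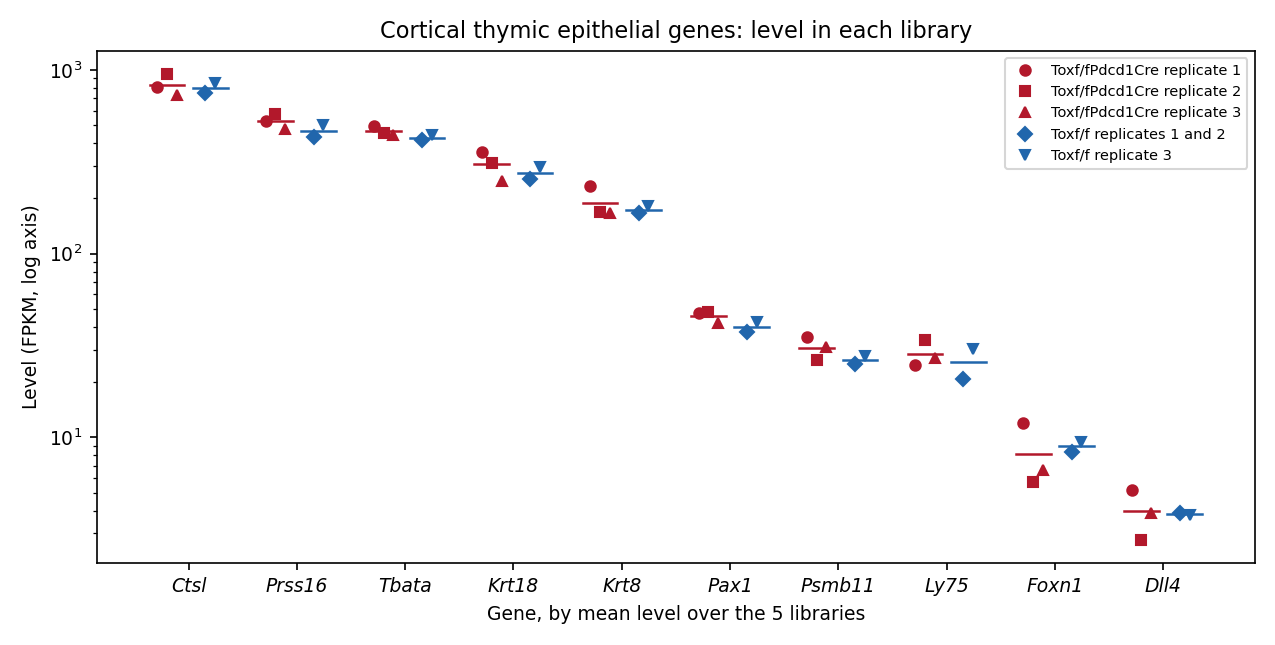
Level of each cortical thymic epithelial gene (FPKM, log axis) in the 3 Toxf/fPdcd1Cre libraries (red) and the 2 Toxf/f libraries (blue), with genes ordered by mean level and short lines at the genotype means. Levels run from 950.95 FPKM for Ctsl to 2.78 FPKM for Dll4, both in Toxf/fPdcd1Cre replicate 2, and the genotypes overlap for every gene but Tbata.

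The comparison of Toxf/fPdcd1Cre with Toxf/f asks how these transcripts differ when Tox is targeted. All 10 members passed the filter on low counts and were tested with edgeR's quasi-likelihood test, fitted on 14121 genes with Benjamini-Hochberg adjustment. None passed the threshold of 0.05, where 1.64% of all tested genes were called. At an unadjusted p under 0.05 stood 0 of the 10 members and 10.3% of all tested genes, 7.26% lower and 3.08% higher. DESeq2 and limma-voom also called 0 of the 10. Log2 fold changes lay between -0.09 (Foxn1) and 0.28 (Psmb11), with a median of 0.19 against 0.03 over all tested genes, and 9 of the 10 were above 0, as were 54.8% of all tested genes. Without Toxf/fPdcd1Cre replicate 1 the median was 0.12 and 7 of the 10 were above 0, and without the shared library of Toxf/f replicates 1 and 2 the median was 0.13. Every 95% interval included no change. Over all 10 genes the intervals reached from 0.649-fold (the lower bound of Foxn1) to 1.53-fold (the upper bound of Ly75). Adjusted p ran from 0.540 for Psmb11 to 0.957 for Foxn1.

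Foxn1 (ENSMUSG00000002057, chromosome 11 from 78357577 to 78386558, minus strand) had 11.95, 5.74 and 6.66 FPKM in Toxf/fPdcd1Cre replicates 1, 2 and 3, against 8.35 and 9.5 FPKM in Toxf/f libraries. Both Toxf/f libraries lay between the highest and the lower Toxf/fPdcd1Cre values. The mean was 8.12 ± 3.35 FPKM (SD, n = 3) in Toxf/fPdcd1Cre and 8.93 ± 0.813 FPKM (SD, n = 2) in Toxf/f libraries, and the log2 fold change was -0.09 ± 0.24 (SE; adjusted p = 0.957, edgeR). Leaving out replicate 1 of Toxf/fPdcd1Cre gave -0.48 and leaving out replicate 2 gave 0.09, neither of them past the threshold.

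Pax1 encodes a paired-box factor of the pharyngeal pouches, from which the thymus arises, and lies on chromosome 2 from 147361925 to 147393295, plus strand (ENSMUSG00000037034). It had 47.66, 48.25 and 41.99 FPKM in Toxf/fPdcd1Cre libraries, against 37.58 and 42.62 FPKM in Toxf/f libraries. Its log2 fold change was 0.24 ± 0.13 (SE; adjusted p = 0.579, edgeR). In contrast to Foxn1, it varied little, with the highest library 1.33 times the lowest in CPM (counts scaled to a common library size, on TMM-scaled library sizes), where the ratio for Foxn1 was 1.91.

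Dll4 (ENSMUSG00000027314, chromosome 2 from 119325784 to 119335962, plus strand) was the lowest of the 10 genes. It had 5.19, 2.78 and 3.9 FPKM in Toxf/fPdcd1Cre libraries, against 3.86 and 3.79 FPKM in Toxf/f libraries. The Toxf/f values again fell inside the Toxf/fPdcd1Cre range. Estimated counts were 277, 169 and 222 in Toxf/fPdcd1Cre and 223 and 228 in Toxf/f libraries, and the log2 fold change was 0.10 ± 0.23 (SE; adjusted p = 0.954, edgeR). With replicate 1 of Toxf/fPdcd1Cre left out it was -0.14, and with replicate 2 left out 0.29.

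Prss16, Psmb11 and Ctsl, the 3 members that act in peptide processing, were not called. Prss16 encodes a thymus-specific serine protease that shapes the peptides shown to CD4 cells, and lies on chromosome 13 from 22002173 to 22009742, minus strand (ENSMUSG00000006179). It had 525.26, 576.11 and 477.69 FPKM in Toxf/fPdcd1Cre libraries, against 431.4 and 502.39 FPKM in Toxf/f libraries, a log2 fold change of 0.24 ± 0.15 (SE; adjusted p = 0.668, edgeR). Toxf/f replicate 3 lay above Toxf/fPdcd1Cre replicate 3 on this scale. Psmb11, whose product replaces the usual catalytic subunit in the proteasome of cortical epithelium and is needed for CD8 cell selection, lies on chromosome 14 from 54621433 to 54629556, plus strand (ENSMUSG00000072423). It had 35.06, 26.35 and 31.11 FPKM in Toxf/fPdcd1Cre libraries, against 25.03 and 27.89 FPKM in Toxf/f libraries. Its log2 fold change of 0.28 ± 0.14 (SE; adjusted p = 0.540, edgeR) was the farthest from 0 of the 10, and was 0.17 with replicate 1 of Toxf/fPdcd1Cre left out. Ctsl, the gene of cathepsin L, a lysosomal protease that other cell types also make, lies on chromosome 13 from 64359337 to 64370890, minus strand (ENSMUSG00000021477). It had 807.81, 950.95 and 729.96 FPKM in Toxf/fPdcd1Cre libraries, against 751.47 and 854.48 FPKM in Toxf/f libraries, which fell inside that range (log2 fold change 0.10 ± 0.16 SE, adjusted p = 0.922, edgeR). Ctsl was the only member with counts that were not whole.

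Ly75 encodes DEC-205, an endocytic receptor of cortical epithelium and of dendritic cells, and lies on chromosome 2 from 60292103 to 60383303, minus strand (ENSMUSG00000026980). It had 24.64, 33.81 and 27 FPKM in Toxf/fPdcd1Cre libraries, against 20.84 and 30.36 FPKM in Toxf/f libraries. Both genotypes spread widely and overlapped, with a log2 fold change of 0.20 ± 0.19 (SE; adjusted p = 0.830, edgeR) that was -0.02 without the shared library of Toxf/f replicates 1 and 2.

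Krt8 and Krt18 are neighbours on chromosome 15, at 101996698 to 102004482 on the minus strand (ENSMUSG00000049382) and at 102028180 to 102032027 on the plus strand (ENSMUSG00000023043). Krt8 had 235.12, 168.11 and 165.63 FPKM in Toxf/fPdcd1Cre libraries, against 165.83 and 182.24 FPKM in Toxf/f libraries. Toxf/fPdcd1Cre replicate 1 was the highest, and the other 4 libraries overlapped. Krt18 had 359.2, 312.91 and 248.31 FPKM in Toxf/fPdcd1Cre libraries, against 254.34 and 296.05 FPKM in Toxf/f libraries. The log2 fold changes were 0.18 ± 0.16 for Krt8 and 0.21 ± 0.16 for Krt18 (SE; adjusted p = 0.822 and 0.759, edgeR), and without Toxf/fPdcd1Cre replicate 1 they were -0.01 for Krt8 and 0.076 for Krt18. The ratio of Krt18 to Krt8 FPKM was 1.53, 1.86 and 1.5 in Toxf/fPdcd1Cre and 1.53 and 1.62 in Toxf/f libraries.

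Tbata, a gene named for its expression in thymus, brain and testis, which in mouse restrains the growth of thymic epithelium, lies on chromosome 10 from 61171954 to 61188841, plus strand (ENSMUSG00000020096). It had 495.72, 455.16 and 445.22 FPKM in Toxf/fPdcd1Cre libraries, against 414.43 and 440.53 FPKM in Toxf/f libraries. These values did not overlap, and its libraries lay closest together of the 10 genes, with the highest 1.19 times the lowest in CPM. Its log2 fold change was 0.18 ± 0.13 (SE; adjusted p = 0.741, edgeR).

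Whether the genotypes overlapped depended on the scale for some members. In CPM, Prss16, Psmb11, Tbata and Pax1 were higher in each Toxf/fPdcd1Cre library than in both Toxf/f libraries, and these 4 were the only members without overlap. Over all tested genes 26.2% did not overlap in CPM, 12.6% with Toxf/fPdcd1Cre higher. In FPKM, Tbata alone of the 10 did not overlap, and the share over all genes was not computed on that scale. Two-sided exact permutation tests of log2 CPM gave p = 0.1 for Prss16 and Tbata, the smallest p that 3 against 2 libraries allow, and 0.2 to 0.8 for the other 8 members.

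Age was a second label on which libraries differed, with few libraries on each side. Among the 3-week libraries, 2 Toxf/fPdcd1Cre against 1 Toxf/f, the differences in mean log2(CPM + 1) lay between 0.00 (Dll4) and 0.47 (Ly75), all 10 of them above 0, as were 49.3% of all tested genes. For the 4-week libraries, 1 against 1, they lay between -0.39 (Foxn1) and 0.27 (Psmb11), with 5 of the 10 above 0 and 54.2% of all tested genes. Prss16 differed by 0.39 at 3 weeks and by 0.05 at 4 weeks. These values have no replicate check.

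The members fell into different orders across libraries in CPM. Replicate 1 of Toxf/fPdcd1Cre was the highest of the 5 in Foxn1, Dll4, Krt8, Krt18 and Psmb11. Toxf/fPdcd1Cre replicate 2 was the highest in Ly75, Ctsl, Prss16, Pax1 and, by a small margin, Tbata, and the lowest in Foxn1 and Dll4. Relative to each gene's mean over the 5 libraries, in log2(CPM + 1), Foxn1 stood at 0.49 and -0.44 and Dll4 at 0.37 and -0.38 in Toxf/fPdcd1Cre replicates 1 and 2, while Ly75 stood at -0.17 and 0.37. The shared library of Toxf/f replicates 1 and 2 was the lowest in the other 8 members. The spread within genotypes, as the pooled SD of log2(CPM + 1), had a median of 0.18 over the 10 members and 0.18 over all tested genes. It was 0.40 for Foxn1, 0.31 for Dll4 and 0.30 for Ly75, and 0.05 for Tbata.

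**Figure D2:**
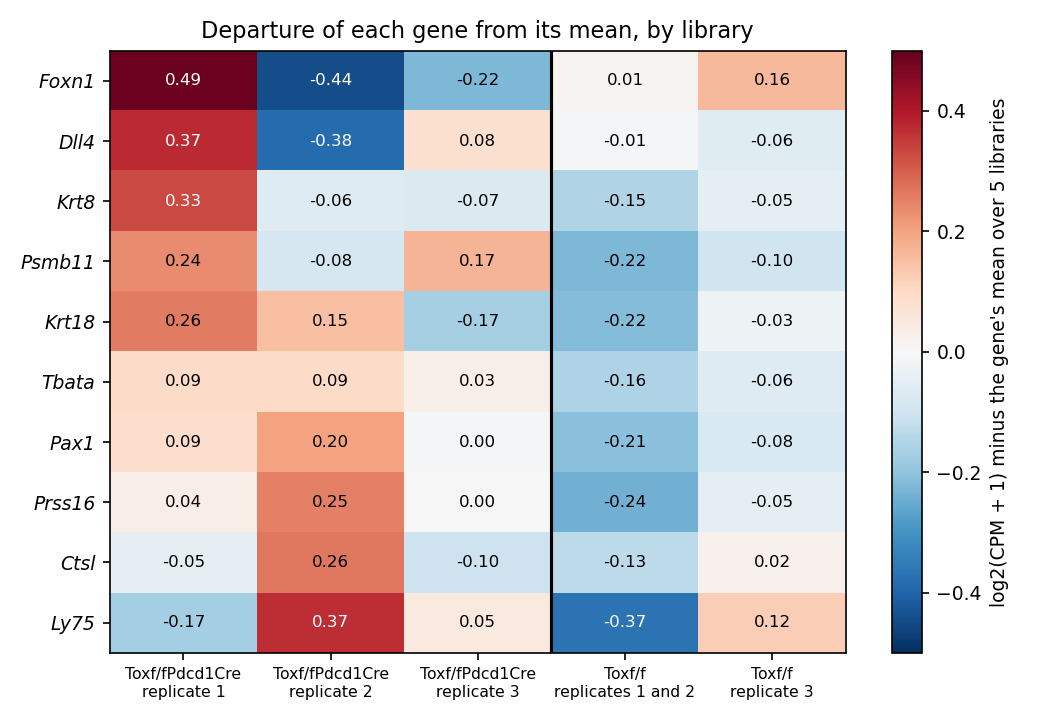
Departure of each cortical epithelial gene from its own mean over the 5 libraries, in log2(CPM + 1), with 3 Toxf/fPdcd1Cre libraries left of the line and 2 Toxf/f libraries right of it. Genes run from those higher in Toxf/fPdcd1Cre replicate 1 than in replicate 2 (Foxn1, 0.49 against -0.44) to those lower (Ly75, -0.17 against 0.37).

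Genes that work with the members were compared in the same fit. Of 8 tested transcription factors of thymic epithelium, 0 were called and 0 had an unadjusted p under 0.05 (edgeR), with a median log2 fold change of -0.20. DESeq2 and limma-voom also called none of the 8. Their summed level was 28.6, 21.5 and 19.9 FPKM in Toxf/fPdcd1Cre and 24.3 and 30.1 FPKM in Toxf/f libraries. Toxf/f replicate 3 was the highest, Toxf/fPdcd1Cre replicate 1 came next, and the genotypes overlapped.

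Of 10 signals and surface molecules of the cortical niche, 0 were called, with a median of -0.02. At an unadjusted p under 0.05 (edgeR) 1 was higher, where 3.08% of all tested genes were. Neither DESeq2 nor limma-voom called any. Ccl25, a chemokine that draws progenitors into the thymus, had 743.71, 634.33 and 685.27 FPKM in Toxf/fPdcd1Cre libraries, against 602.26 and 691.2 FPKM in Toxf/f libraries. The values overlapped, with a log2 fold change of 0.15 ± 0.14 (SE; adjusted p = 0.836, edgeR). Cxcl12, a chemokine that holds progenitors in the cortex, had 130.18, 144.1 and 139.57 FPKM in Toxf/fPdcd1Cre libraries, against 120.89 and 123.51 FPKM in Toxf/f libraries (log2 fold change 0.27 ± 0.13 SE, adjusted p = 0.525, edgeR). Its values did not overlap. The gene with the small unadjusted p was Enpep, singled out after its values were seen, which encodes the surface enzyme Ly51 by which cortical epithelium is often sorted. It had 9.57, 15.87 and 14.45 FPKM in Toxf/fPdcd1Cre libraries, against 6.73 and 11.19 FPKM in Toxf/f libraries, which overlapped (log2 fold change 0.64 ± 0.25 SE, adjusted p = 0.350, edgeR).

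Among 12 tested Notch ligands, receptors and targets, which act on the thymocyte side of Dll4 or beside it, 0 were called and 2 were higher at an unadjusted p under 0.05 (edgeR), against 3.08% of all tested genes. DESeq2 and limma-voom called none, and the median was -0.01. The 2 genes with the small unadjusted p were Ptcra and Notch3, the latter singled out after its values were seen. Notch3 stood at 0.63 ± 0.23 (SE; adjusted p = 0.321, edgeR), and its values overlapped between genotypes in FPKM but not in CPM. Notch1, the receptor that DLL4 engages on progenitors, had 38.47, 32 and 33.53 FPKM in Toxf/fPdcd1Cre libraries, against 20.2 and 34.23 FPKM in Toxf/f libraries (log2 fold change 0.40 ± 0.19 SE, adjusted p = 0.508, edgeR). Its values overlapped, and the log2 fold change was 0.090 without the shared Toxf/f library and 0.80 without Toxf/f replicate 3. Ptcra, a Notch target that encodes the pre-T alpha chain, stood at 0.42 ± 0.16 (SE; adjusted p = 0.342, edgeR), and its values overlapped in neither FPKM nor CPM.

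The proteasome subunits and regulators related to Psmb11 had 0 called of 9 and 2 lower at an unadjusted p under 0.05 (edgeR), where 7.26% of all tested genes were lower, with a median of 0.01. DESeq2 called 1 and limma-voom 0. Psmb8, the immunoproteasome counterpart of Psmb11, averaged 225 ± 16.4 FPKM (SD, n = 3) in Toxf/fPdcd1Cre and 233 ± 13.4 FPKM (SD, n = 2) in Toxf/f libraries.

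Lysosomal proteases and class II processing genes, the group to which Ctsl belongs, had 3 of 11 tested members lower and 0 higher, with a median of -0.50. Over all tested genes 1.51% were lower and 0.135% higher. Ctss, the gene of cathepsin S, which serves antigen presentation in medullary and dendritic cells, had 69.21, 64.78 and 52.95 FPKM in Toxf/fPdcd1Cre libraries, against 115.93 and 154.06 FPKM in Toxf/f libraries. It fell by 1.06 ± 0.15 on the log2 scale (SE; adjusted p = 0.00458, edgeR), where Ctsl stood at 0.10. The difference between the responses of these genes was not tested. Cd74, the class II invariant chain, fell by 0.74 and Ctsz, the gene of cathepsin Z, fell by 0.62 (adjusted p = 0.0277 and 0.0348, edgeR). With Toxf/f replicate 3 left out Ctss was no longer called (adjusted p = 0.159). Cd74 and Ctsz were called in the fit without Toxf/fPdcd1Cre replicate 1 and in none of the other 4 fits that leave out 1 library (adjusted p = 0.0560 to 0.353 for Cd74 and 0.0597 to 0.356 for Ctsz). Of the 11, 4 were called without Toxf/fPdcd1Cre replicate 1, where 586 of all genes were lower and 20 higher. Without Toxf/fPdcd1Cre replicate 2 or 3, 1 was called, where 171 and 103 of all genes were lower and 30 and 11 higher. Leaving out either Toxf/f library also lowered the count, in the list and over all genes.

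Genes of the medullary epithelium, the neighbouring compartment that displays tissue antigens to maturing T cells, gave other values than the cortical members. Of 12 tested, 4 were lower and 0 higher, with a median of -1.12 where that of the cortical members was 0.19. Over all tested genes 1.51% were lower and 0.135% higher. Ccl21a, a chemokine that draws maturing cells into the medulla, had 180.81, 139.2 and 119.7 FPKM in Toxf/fPdcd1Cre libraries, against 325.04 and 509.94 FPKM in Toxf/f libraries, and fell by 1.46 ± 0.19 on the log2 scale (SE; adjusted p = 0.00301, edgeR). Ccl21a has near-identical copies whose reads counting may split. Krt14, a keratin of medullary epithelium, had 11.99, 7.09 and 5.78 FPKM in Toxf/fPdcd1Cre libraries, against 17 and 24.77 FPKM in Toxf/f libraries, and fell by 1.29 ± 0.25 (SE; adjusted p = 0.0275, edgeR). Each Toxf/fPdcd1Cre library was below both Toxf/f libraries in both genes. Tnfrsf11a, the receptor RANK through which medullary cells mature, fell by 1.48, and Cd80, a co-stimulatory ligand that dendritic and B cells also carry, fell by 1.58 (adjusted p = 0.0202 and 0.0365, edgeR). The ratio of Krt18 to Krt14 FPKM was 30.0, 44.1 and 43.0 in Toxf/fPdcd1Cre and 15.0 and 12.0 in Toxf/f libraries. Since Krt18 overlapped between genotypes and Krt14 did not, this ratio restates the Krt14 values and is not a separate result. The difference between the cortical and medullary groups was not tested, since both were chosen with earlier results of these data known.

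Calls in the medullary list turned on single libraries and on the processing, as did calls over all genes. The count of 4 became 2 with upper-quartile factors, 1 at 10 CPM in 3 libraries, 1 with age as a covariate and 0 in each of the 3 limma fits on FPKM, and 9 with the replicate block that gives the shared Toxf/f library number 2. Over all genes 213 were lower and 19 higher in the main fit, and the counts under these settings are given below. DESeq2 called 5 and limma-voom 6 of the list, where 316 and 280 of all genes were lower and 43 and 17 higher. The list's count of called genes was 7 without Toxf/fPdcd1Cre replicate 1, 3 without replicate 2 and 1 without replicate 3. Of all genes, 586, 171 and 103 were then lower and 20, 30 and 11 higher. Without either Toxf/f library, fewer were called in the list and over all genes. Without Toxf/f replicate 3 the adjusted p of Ccl21a was 0.102 and that of Krt14 was 0.458, and Krt14 also lost its call without the shared Toxf/f library (adjusted p = 0.115) and without Toxf/fPdcd1Cre replicate 3 (adjusted p = 0.0795). Tnfrsf11a and Cd80 lost theirs without the same 3 libraries (adjusted p = 0.0800 to 0.475), Cd80 also without Toxf/fPdcd1Cre replicate 2 (adjusted p = 0.0620). No cortical member was called in any of these fits.

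**Figure D3:**
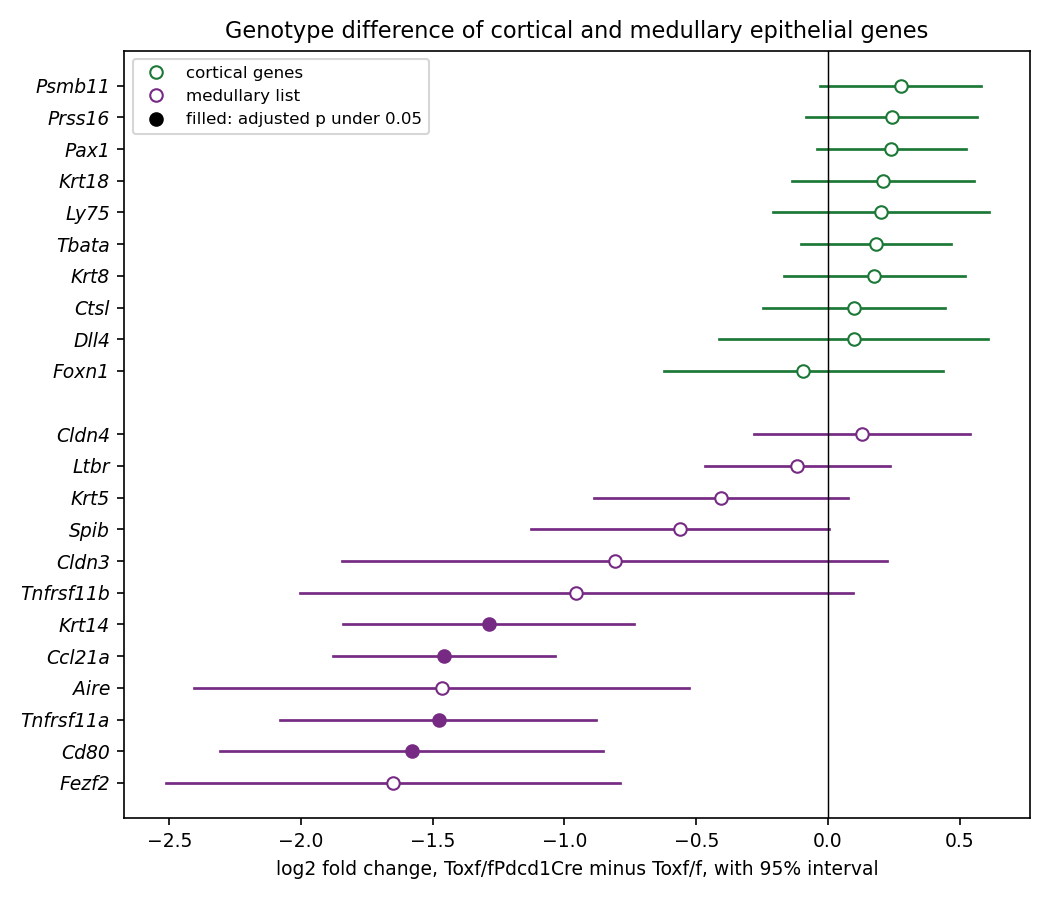
Log2 fold change of Toxf/fPdcd1Cre over Toxf/f, with its 95% interval, for the 10 cortical genes (green) and the 12 medullary genes (purple), filled where the adjusted p was under 0.05. All 10 cortical intervals include 0, and the 4 filled points, Krt14, Ccl21a, Tnfrsf11a and Cd80, are medullary genes.

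**Figure D4:**
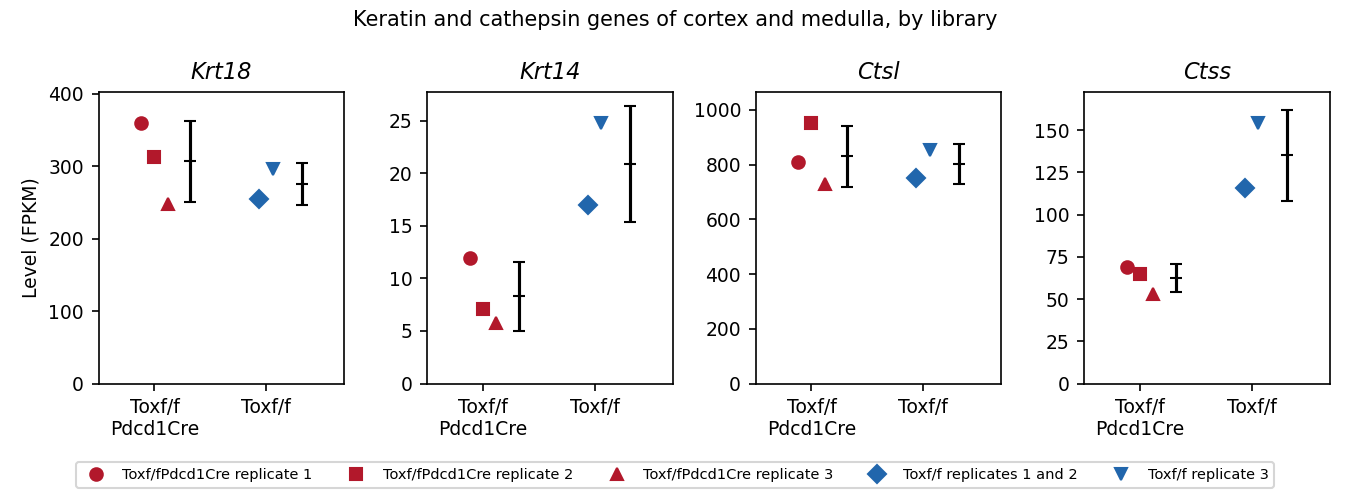
Level in FPKM of the cortical genes Krt18 and Ctsl and of Krt14 and Ctss, in 3 Toxf/fPdcd1Cre libraries (red) and 2 Toxf/f libraries (blue), with the mean and SD in black. Krt18 and Ctsl overlap between genotypes, and Krt14 and Ctss are lower in each Toxf/fPdcd1Cre library.

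Other keratins than Krt8 and Krt18 had 1 of 10 tested lower, Krt14, where 1.51% of all tested genes were, and 0 higher, with a median of -0.40. The count was 3 without Toxf/fPdcd1Cre replicate 1, 1 without replicate 2 and 0 without replicate 3. Counts over all genes in these fits are given with the medullary list. Krt14 also lost its call without either Toxf/f library. Relatives of Ly75 in the mannose receptor family had 0 of 3 called, with none called by DESeq2 or limma-voom. At an unadjusted p under 0.05 (edgeR) 1 was higher, where 3.08% of all tested genes were.

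Some members are also made by other cells, so the markers of those cells were set beside them. Ly75 and Ctsl are expressed by dendritic cells and macrophages, and Dll4 by endothelium. The 12 dendritic cell markers summed to 326 to 480 FPKM in Toxf/fPdcd1Cre and 653 to 794 FPKM in Toxf/f libraries. Of the 12, 9 were lower at an unadjusted p under 0.05 (edgeR), where 7.26% of all tested genes were. After adjustment 3 were called lower, where 1.51% of all tested genes were. Ccl22 fell by 2.81, Flt3 fell by 1.05 and H2-Eb1 fell by 0.91 on the log2 scale (adjusted p = 0.00302, 0.0277 and 0.0179, edgeR). Of the 5 fits that leave out 1 library, Ccl22 lost its call in those without either Toxf/f library (adjusted p = 0.0715 and 0.102), and Flt3 and H2-Eb1 in those and in the one without Toxf/fPdcd1Cre replicate 3 (adjusted p = 0.0650 to 0.393). The count of called markers was 4 without Toxf/fPdcd1Cre replicate 1, 3 without Toxf/fPdcd1Cre replicate 2, 1 without Toxf/fPdcd1Cre replicate 3, and 0 without either Toxf/f library. The 10 macrophage markers summed to 423 to 526 FPKM in Toxf/fPdcd1Cre and 710 to 779 FPKM in Toxf/f libraries, with 0 called and 5 lower at an unadjusted p under 0.05 (edgeR), where 7.26% of all tested genes were, and 1 called by each of DESeq2 and limma-voom. The sums of both lists were lower in every Toxf/fPdcd1Cre library, while Ly75 and Ctsl overlapped. These sums rest largely on a few abundant genes. H2-Ab1 averaged 236 and 364 FPKM, H2-Eb1 129 and 252 FPKM and Lyz2 133 and 303 FPKM in Toxf/fPdcd1Cre and Toxf/f. Log2 fold changes were below 0 for 11 of the 12 dendritic cell markers and 9 of the 10 macrophage markers. The macrophage marker Adgre1 stood at 0.29. The 8 endothelial markers summed to 59.7 to 88.7 FPKM in Toxf/fPdcd1Cre and 77.1 to 79.1 FPKM in Toxf/f libraries, with 0 called and 0 at an unadjusted p under 0.05 (edgeR), and none by DESeq2 or limma-voom. This sum was highest in Toxf/fPdcd1Cre replicate 1, as were Dll4, Foxn1, Krt8, Krt18 and Psmb11. It was lowest in Toxf/fPdcd1Cre replicate 3, while Dll4 was lowest in replicate 2. No marker of these lists was at 0 in all libraries, and their part in the levels of Ly75, Ctsl and Dll4 was not tested.

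Thymocyte and other markers were set beside the members in the same way. The 9 double-positive thymocyte markers summed to 3251 to 4106 FPKM over all 5 libraries, with 0 called, 0 at an unadjusted p under 0.05 (edgeR) and none by DESeq2 or limma-voom. The 10 cortical genes summed to 2113 to 2580 FPKM over all libraries. Such sums depend on which genes a list holds, so they do not compare amounts of cells. The 10 double-negative markers summed to 48.5 to 68.7 FPKM in Toxf/fPdcd1Cre and 57.5 to 74.0 FPKM in Toxf/f libraries. Among them Il2ra averaged 25.9 FPKM over the libraries, above Foxn1 (8.44 FPKM) and Dll4 (3.90 FPKM). Of these 10 markers Cd44, an adhesion receptor of early progenitors that many other cells carry, fell by 0.67 (adjusted p = 0.0437, edgeR), a call that held without Toxf/fPdcd1Cre replicate 1 and in none of the other fits that leave out 1 library (adjusted p = 0.102 to 0.333). Fibroblast markers summed to 113 to 164 FPKM in Toxf/fPdcd1Cre and 127 to 143 FPKM in Toxf/f libraries. Of the 8, 6 had a log2 fold change above 0, with a median of 0.32. At an unadjusted p under 0.05 (edgeR) 1 was lower and 1 higher. The 1 called was lower, the smooth muscle actin gene Acta2, which went against most of its list. Acta2 fell by 1.17 (adjusted p = 0.0140, edgeR) and lost its call without either Toxf/f library. B cell markers summed to 28.5 to 42.6 FPKM in Toxf/fPdcd1Cre and 39.8 to 56.3 FPKM in Toxf/f libraries, with 0 of 8 called, 3 lower and 1 higher at an unadjusted p under 0.05 (edgeR), and 1 called by each of DESeq2 and limma-voom. Of all tested genes, 1.51% were called lower and 0.135% higher. At an unadjusted p under 0.05 (edgeR), 7.26% were lower and 3.08% higher.

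**Figure D5:**
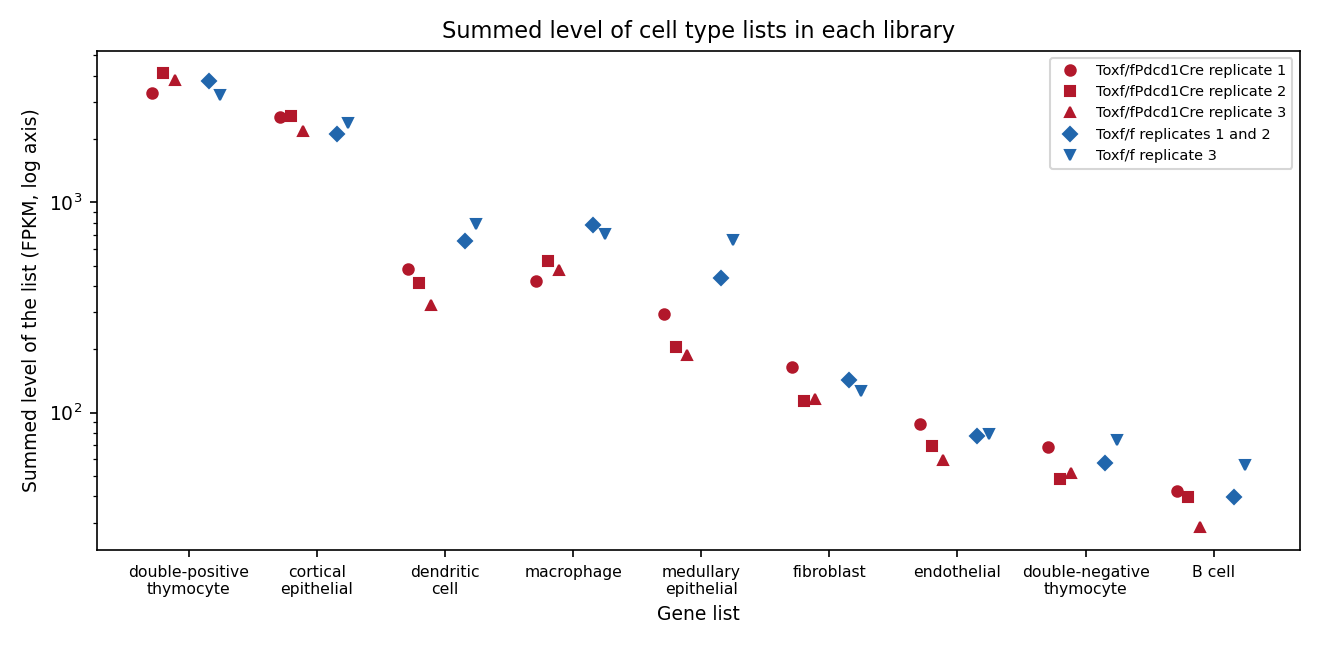
Summed level of each gene list (FPKM, log axis) in the 3 Toxf/fPdcd1Cre libraries (red) and the 2 Toxf/f libraries (blue). The cortical genes overlap between genotypes at 2113 to 2580 FPKM, while dendritic cell, macrophage and medullary sums are lower in each Toxf/fPdcd1Cre library. A sum is weighted to the most abundant genes of its list.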

How the data were processed

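RNA was measured in 6 samples. Per the labels' protocols, the authors used Trizol for extraction and a NEBNext Ultra kit for the libraries. Per the file headers, each deposited table gives a gene's estimated count and its FPKM. The submitters' processing notes name fastp 0.18.0, HISAT2 and StringTie 1.3.1, with no role for any of them. Genome build, annotation, counter and strand setting: not given in the sources used here. Between 8.81% and 9.84% of the deposited estimated counts in a library were not whole. Estimated counts were rounded, filtered with filterByExpr (14121 genes left, while 3426 genes were at 0 in every library), scaled by TMM and tested with edgeR 4.0.16 in R 4.3.3 (quasi-likelihood, Benjamini-Hochberg, threshold 0.05), with genotype as the one term and Toxf/f as its baseline. SEs and 95% intervals are approximate and derive from the quasi-likelihood F. The test was also run on counts simulated from the mean levels and dispersions of its own fit. Such counts cannot show how the test behaves where libraries depart from that model.

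The members and gene lists were chosen with earlier results of these data known, so counts over a list are descriptions. Every member is named. From the other lists the rule named called genes (up to 4) or, with none called, up to 2 of the highest mean FPKM, and values are given for part of these. Alternatives were RLE and upper-quartile factors, filters on low counts, DESeq2 1.42.0, limma-voom, limma 3.58.1 on log2(FPKM + 1) or log2(FPKM + 0.1), age, a replicate block, the identical files counted separately, and each library left out. Gene positions come from GENCODE M21 (GRCm38) by Ensembl identifier; whether the files rest on that build is not known. No other listed gene overlaps a member there. Promoter positions count from the RefSeq transcription start, at the leftmost base of the motif. Because the tables of Toxf/f replicates 1 and 2 were identical, a second set of values was not used here. Figures were drawn with matplotlib 3.10.9.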

Additional observations from a re-analysis of the deposited data

How the results depend on the processing

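No member passed the threshold in any of 18 alternatives, 180 member values in all, and the smallest adjusted p among them was 0.179. The sign differed from the reported one in 9 of the 180. With a replicate block in which the shared Toxf/f library took number 1, Foxn1 stood at 0.051 and Ctsl at -0.021; with the number 2 of its column name, chosen after seeing the data, Dll4 stood at -0.12. Leaving out 1 library at a time, Foxn1 ranged from -0.48 to 0.091, Ly75 from -0.021 to 0.47, Krt8 from -0.011 to 0.24, Dll4 from -0.14 to 0.29 and Ctsl from -0.024 to 0.18. Over all genes 213 were lower and 19 higher. These counts became 28 to 586 and 2 to 30 on leaving out 1 library, 369 and 48 with no filter on low counts, 63 and 4 at 10 CPM in 3 libraries, 53 and 4 with limma on log2(FPKM + 1), 17 and 1 with no filter there, 8 and 2 with log2(FPKM + 0.1), 116 and 9 with age as a covariate and 325 and 55 with the identical files counted separately. They were 159 and 9 with upper-quartile factors and 316 and 43 with DESeq2. The replicate block gave 340 and 95 with the shared library as number 1 and 769 and 99 as number 2. The numbers give at most 2 pairs of distinct libraries, and no pairing was used in the main fit. Deviations from the genotype means correlated across genes at -0.155 for the pair numbered 1 and -0.134 for the pair numbered 3. The value was 0.0733 if the shared library is number 2. With 2 Toxf/f libraries their deviations are equal and opposite, so these correlations cannot decide whether the numbers pair the samples. The causes of the differences between settings were not tested. With 3 against 2 libraries, differences inside the intervals given for each member cannot be told from none.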

Other observations

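Levels set against each other within a library varied for some pairs of cortical genes. The ratio of Prss16 to Psmb11 FPKM was 15.0, 21.9 and 15.4 in Toxf/fPdcd1Cre and 17.2 and 18.0 in Toxf/f libraries. The ratio of Ctsl to Foxn1 FPKM was 67.6, 166 and 110 in Toxf/fPdcd1Cre libraries, against 90.0 and 89.9 in Toxf/f libraries. Psmb11 reached 0.496, 0.326 and 0.445 of the FPKM of Psmb5, the catalytic subunit of the standard proteasome, in Toxf/fPdcd1Cre libraries, and 0.338 and 0.418 in Toxf/f libraries. These pairs were chosen after their values were seen, and the genotypes overlapped in each.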
